A study of Mus musculus with 6 samples.

Results

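The 10 genes described here encode negative feedback regulators of the ERK pathway. They are the dual-specificity phosphatases Dusp4, Dusp5, Dusp6 and Dusp7, the Sprouty genes Spry1, Spry2 and Spry4, and the Spred genes Spred1, Spred2 and Spred3. They were read by their symbols out of a table of read counts per gene, where they are 10 of 25239 genes, and all 10 had enough counts to be tested, as did 15256 genes in all.

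RNA was taken at day 31 from follicle-enriched thyroid organoids made from mouse embryonic stem cells of the line G4 RosaLuc, which carries the constructs TRE-Nkx2-1-Pax8 and bTg-NES-BrafV637E-ERT2. Doxycycline switches on Nkx2-1 and Pax8, transcription factors of the thyroid fate, and the bovine thyroglobulin promoter drives a BrafV637E-ERT2 fusion in thyroid follicular cells. BrafV637E is the mouse counterpart of the human BRAF V600E oncoprotein, and 4-hydroxytamoxifen (4OHT) activates the fused protein. All 3 groups carried the transgene, had gone through the doxycycline step and received 8-Br-cAMP. The cAMP group received no 4OHT and no inhibitor, and the methods describe ethanol as the vehicle given to controls. The 4OHT group received 1 µM 4OHT for 5 days. In the PD+LY group 1 µM 4OHT was combined for 3 days with PD0325901 and LY204002. PD0325901 is a MEK inhibitor used at 250 nM, and LY204002 a PI3K inhibitor used at 5 µM. The study's methods spell the latter LY204002 and some of its figure captions LY294002. The methods describe 4 days of 4OHT before the inhibitors, so the days of 4OHT may differ between PD+LY and 4OHT. The inhibitors were given together, and their separate effects cannot be told apart. Each group holds 2 libraries, each from pooled wells of 1 cell line, so the p-values measure the spread between such pools.

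ERK is the last kinase of the cascade that runs from growth factor receptors through RAS, RAF and MEK. Active ERK raises the transcription of genes whose products then restrain the cascade. The Dusp products remove phosphate from ERK itself, Sprouty proteins act between the receptor and RAS, and Spred proteins bring neurofibromin, a RAS inactivator, to the membrane. The transcripts of several of these genes are for this reason widely used as readouts of ERK output in thyroid tumors and elsewhere.

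The libraries hold 14898409 to 20637959 counts, so that 1 count equals 0.0486 to 0.0667 CPM (the count scaled by library size and TMM factor). No library stood apart in depth or in the share of its 10 most abundant genes, which was 5.08 to 5.98%. Replicates differed by more than counting error, and the chi-square divided by its degrees of freedom was 8.26 for the cAMP pair, 4.53 for the 4OHT pair and 17.7 for the PD+LY pair. All 7 thyroid follicular markers searched, Tg and Slc5a5 among them, had at least 3 counts in every library. The markers of other cell types were also present. The summed level of 7 mesenchymal markers was 1008 to 1101 CPM in cAMP, 1785 to 1921 in 4OHT and 2897 to 3268 in PD+LY. That of 6 epithelial markers was 891 to 957, 676 to 746 and 688 to 724 CPM in the same order, and that of 6 pluripotency markers 2976 to 3031, 3192 to 3339 and 3419 to 3632 CPM. The 7 thyroid markers summed to 1077 to 1619 CPM in cAMP, 559 to 750 in 4OHT and 965 to 1942 in PD+LY. Most of this sum was Tg, with 1566 and 1022 CPM in cAMP, 514 and 693 in 4OHT and 1870 and 907 in PD+LY. The 6 endothelial markers summed to 171 to 194 CPM in every library. Emcn among them had few counts throughout, with 4 and 3 in cAMP, 4 and 1 in 4OHT and 0 in both PD+LY libraries. Sums are led by the most abundant gene of a list and can hide the others. Of the 6 epithelial markers, 2 were called lower (edgeR adjusted p under 0.05 and at least 2-fold) in PD+LY relative to 4OHT (median log2 fold change -0.77), 4 lower relative to cAMP (median -1.11) and 0 in 4OHT relative to cAMP (median -0.34), where DESeq2 also called 0 and 3 were lower at an unadjusted edgeR p under 0.05. Of 5 endothelial markers tested, 2 were called lower in 4OHT relative to cAMP (median -0.67) and 2 in PD+LY relative to cAMP (median -0.99). Pecam1, the most abundant of them, was higher in 4OHT relative to cAMP (0.36, edgeR adjusted p = 0.0271), below 2-fold. In PD+LY relative to cAMP its log2 fold change was 0.2 (edgeR adjusted p = 0.115). Of the 7 mesenchymal markers, Col3a1 was called higher and Pdgfrb lower in PD+LY relative to 4OHT (median 0.03). Relative to cAMP, 3 were called higher and Pdgfrb lower in PD+LY (median 0.18), and 1 higher in 4OHT (median 0.29). Of the 7 thyroid markers, Tg was called lower in 4OHT relative to cAMP (median -0.27). In PD+LY 4 of them were called higher relative to 4OHT (median 1.2), and Foxe1 relative to cAMP (median 0.19). Nkx2-1, Pax8 and Hhex were called in no comparison. Of the 6 pluripotency markers 1 was called, Lin28a, lower in each comparison. Their medians were 0.19 in 4OHT relative to cAMP, 0.09 in PD+LY relative to 4OHT and 0.25 in PD+LY relative to cAMP. Markers of other cell types thus differ between the groups that the results below compare, and their part in those results was not tested. The medians of the epithelial markers lie in the same direction as those of the feedback genes. Cdh1, the most abundant epithelial marker, was higher in PD+LY relative to 4OHT (log2 fold change 0.67, edgeR adjusted p = 0.000311), below 2-fold. In bulk RNA, fewer cells of a type and less RNA per cell cannot be told apart.

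The summed level of the feedback genes was highest in cAMP, lower in 4OHT and lowest in PD+LY. To compare genes of different length, CPM were divided by the merged exon length in kilobases (FPKM). Summed over the 10 genes, this level was 128.0 and 130.0 FPKM in the cAMP libraries, 99.3 and 103.0 in the 4OHT libraries and 45.0 and 49.0 in the PD+LY libraries, and the groups did not overlap. With 2 libraries per group the lowest p that an exact permutation test can reach is 0.3333, so sums are given without a test.

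In cAMP the most abundant feedback transcripts were Spry2, at 31.9 ± 1.92 FPKM, and Dusp4, at 27.1 ± 3.43 FPKM (mean ± SD, n = 2, here and below), which did not differ beyond their SDs. A middle set followed with Spry1 at 15.4 ± 0.261, Dusp6 at 15 ± 0.242 and Spred2 at 14.2 ± 0.402 FPKM. Spry1 and Dusp6 lay within their SDs of each other. Dusp7 (8.87 ± 1.3 FPKM) and Spred1 (7.8 ± 0.953 FPKM) also overlapped in SD, as did Spry4 (4.06 ± 0.581 FPKM) and Dusp5 (4.05 ± 0.0112 FPKM). Spred3 was lowest at 0.989 ± 0.00263 FPKM.

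The order of levels was similar in 4OHT and differed in PD+LY. In 4OHT Spry2 (24.1 ± 1.15 FPKM) and Dusp4 (21.4 ± 1.64 FPKM) again led and overlapped in SD. Spred2 (10.8 ± 0.395), Dusp7 (9.93 ± 0.355), Spry1 (9.88 ± 1.02) and Dusp6 (9.09 ± 0.39 FPKM) came next, with the SD of Spry1 overlapping the other three. Spred1 (5.63 ± 0.193 FPKM), Dusp5 (5.31 ± 1.06 FPKM) and Spry4 (4.33 ± 0.141 FPKM) followed, and Spred3 was at 0.717 ± 0.0585 FPKM. In PD+LY Spry2 still led at 14.8 ± 1.05 FPKM, followed by Spred2 at 10.8 ± 0.727 and Dusp7 at 6.93 ± 1.26 FPKM. Spry1 was at 5.22 ± 0.00139 FPKM, Dusp5 at 3.37 ± 0.302 and Spred1 at 2.52 ± 0.845, the last pair within their SDs. Dusp6 (1.67 ± 0.0353 FPKM) and Dusp4 (1.4 ± 0.224 FPKM) now stood below them, above Spred3 (0.223 ± 0.0719 FPKM) and Spry4 (0.0523 ± 0.00171 FPKM). By level among all tested genes, Dusp4 went from the 87.1 percentile in cAMP to 27.9 in PD+LY and Spry4 from 45.8 to 1.5, whereas Spry2 went from 89.5 to 75.6.

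**Figure D1:**
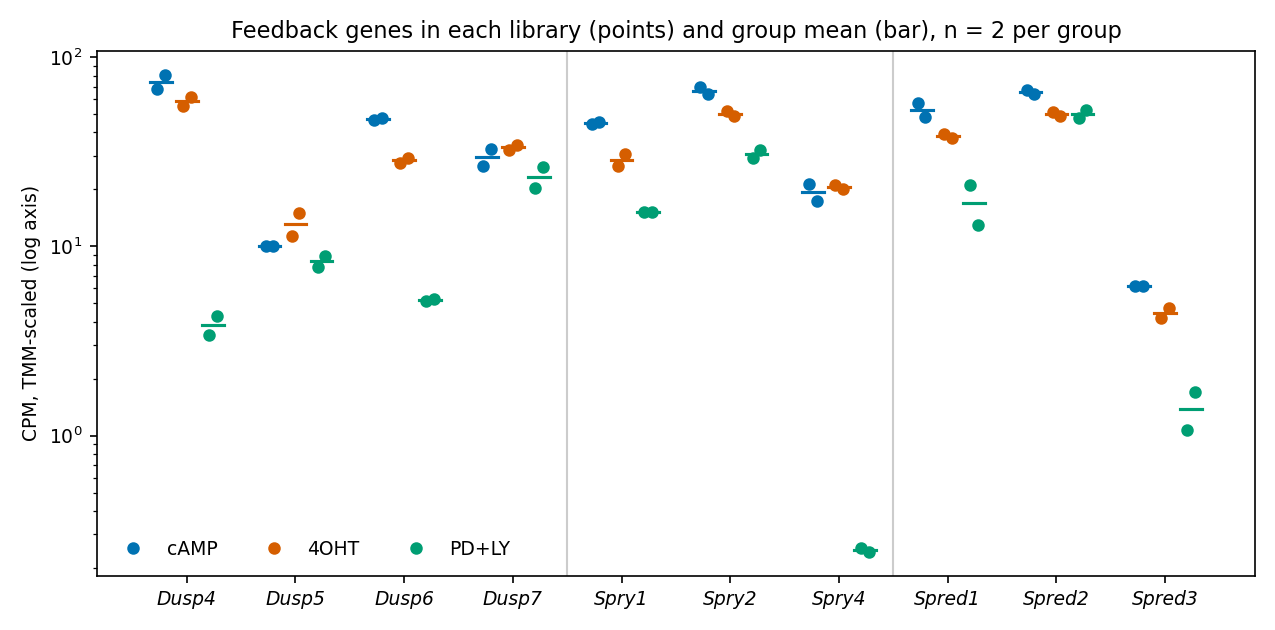
Level of each feedback gene in every library, in TMM-scaled CPM on a log axis, with points for libraries, bars for group means and grey lines between the phosphatase, Sprouty and Spred genes. The PD+LY points of Dusp4 (3.41 and 4.28 CPM), Dusp6 (5.14 and 5.3 CPM) and Spry4 (0.255 and 0.243 CPM) lie far below those of both other groups, while the Spred2 points of PD+LY and 4OHT overlap.

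The phosphatases fall into inducible nuclear enzymes, Dusp4 and Dusp5, and cytoplasmic enzymes, Dusp6 and Dusp7. Dusp5, Dusp6 and Dusp7 prefer ERK as substrate, whereas Dusp4 also acts on the stress kinases JNK and p38. The 5′ flanks of Dusp5 and Dusp6 are shown because, of the phosphatases with a promoter entry, Dusp6 had the largest fall with the inhibitors, and Dusp5, which moved little, held most of the motifs found. The sequences come from the RefSeq promoter table on GRCm38.p6, the build of the count data. Each line gives the 150 bases before the GENCODE M21 gene start on the plus strand, at chr19:53528959-53529108 for Dusp5 and chr10:99263081-99263230 for Dusp6. Capitals mark motif matches.
Dusp5: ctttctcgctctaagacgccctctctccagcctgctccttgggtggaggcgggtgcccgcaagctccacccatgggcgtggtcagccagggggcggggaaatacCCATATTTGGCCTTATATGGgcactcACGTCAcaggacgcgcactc
Dusp6: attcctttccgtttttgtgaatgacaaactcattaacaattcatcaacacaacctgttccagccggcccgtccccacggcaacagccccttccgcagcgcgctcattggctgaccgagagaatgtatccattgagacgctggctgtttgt
A CArG box is the site of serum response factor, whose partner factors are ERK substrates, and TGACGT is the core of a cAMP response element. Both strands of the window from 250 bases before to 50 after the RefSeq start were searched for these, for the AP-1 site TGANTCA, and for CCGGAAG, a site of ETS factors, with CCGGAAA as its other spelling. Of the 10 feedback genes 8 matched an entry, all but Dusp4 and Spry4. Dusp5 held 2 adjoining CArG boxes, CCATATTTGG starting at -82 and CCTTATATGG at -72 from the RefSeq start at 53529145, and the cAMP element read on the other strand, ACGTCA, at -56. Spred2 held ACGTCA at -52. None of the other 6 windows held any of the 5 motifs. Over all 32851 windows of the table, 1.63% held a CArG box, 7.51% TGACGT, 7.81% TGANTCA, and 11.4% an ETS motif of either spelling. A match describes these letters only.

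Dusp4 (chromosome 8, 34807297 to 34819894, plus strand, GRCm38) fell to a small part of its level under the inhibitors. It had 67.5 and 80.9 CPM in cAMP, 55.4 and 61.7 CPM in 4OHT, and 3.41 and 4.28 CPM in PD+LY. Both PD+LY libraries lay far below the other 4, and both 4OHT libraries lay below both cAMP libraries. In PD+LY relative to 4OHT Dusp4 fell 15.2-fold (log2 fold change -3.92, SE 0.17, 95% interval -4.29 to -3.56, adjusted p = 1.18e-07), and against cAMP 19.2-fold (-4.27, adjusted p = 3.85e-08). Here and throughout, tests are edgeR quasi-likelihood tests over all genes with Benjamini-Hochberg adjustment, and a gene is called at an adjusted p under 0.05 with at least a 2-fold change. With 4OHT alone the log2 fold change from cAMP was -0.34 (SE 0.13, adjusted p = 0.137), which did not pass.

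Dusp6 (chromosome 10, 99263231 to 99267489, plus strand), the cytoplasmic ERK phosphatase, showed a step down in each comparison. It had 46.5 and 47.6 CPM in cAMP, 27.6 and 29.3 in 4OHT, and 5.14 and 5.3 in PD+LY. The 3 groups did not overlap, and the replicates lay close together. Groups of 2 libraries often do not overlap, here and below. For 31.2% of all tested genes both PD+LY libraries lay below both cAMP libraries. The log2 fold change of -0.72 from cAMP to 4OHT (SE 0.12, 95% interval -0.99 to -0.46, adjusted p = 0.00489) was 1.65-fold and short of the fold threshold. In PD+LY Dusp6 fell 5.45-fold against 4OHT (-2.45, SE 0.14, adjusted p = 1.42e-06) and 9.0-fold against cAMP (-3.17, adjusted p = 6.85e-08).

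Dusp5 (chromosome 19, 53529109 to 53542431, plus strand) and Dusp7 (chromosome 9, 106368632 to 106375724, plus strand) moved far less. Dusp5 had 10 and 10 CPM in cAMP (159 and 206 counts), 11.3 and 15 in 4OHT, and 7.79 and 8.85 in PD+LY. Its 4OHT libraries were the highest and its PD+LY libraries the lowest. The log2 fold change was 0.39 in 4OHT relative to cAMP (SE 0.19, adjusted p = 0.233), -0.66 in PD+LY relative to 4OHT (SE 0.19, adjusted p = 0.0278) and -0.27 in PD+LY relative to cAMP (adjusted p = 0.34). Dusp7 had 26.7 and 32.8 CPM in cAMP, 32.5 and 34.2 in 4OHT, and 20.3 and 26.3 in PD+LY, so that its cAMP and 4OHT libraries overlapped. Its log2 fold change was 0.16 in 4OHT relative to cAMP (adjusted p = 0.575), -0.52 in PD+LY relative to 4OHT (SE 0.16, adjusted p = 0.0336) and -0.36 in PD+LY relative to cAMP (adjusted p = 0.117). Both genes passed the adjusted p in PD+LY relative to 4OHT, below 2-fold, and both lost it without 4OHT replicate 2 or without PD+LY replicate 1, with adjusted p up to 0.303 for Dusp5 and 0.196 for Dusp7. Dusp7 also lost it without 4OHT replicate 1 (-0.55, adjusted p = 0.117). Exons of AC137853.2 on the opposite strand share 547 bases with Dusp5, and counting without strand cannot separate such reads.

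The makeup of the summed level of these 4 phosphatase genes differed accordingly. The sum leaves out Dusp9, an ERK phosphatase described below, which had more CPM in every library than any of the 4. Dusp9 had 134.0 and 145.0 CPM in cAMP, 185.0 and 174.0 in 4OHT, and 73.4 and 84.0 in PD+LY. The 4 genes summed to 51.5 and 58.6 FPKM in cAMP, 43.3 and 48.1 in 4OHT, and 12.1 and 14.7 in PD+LY. Dusp4 gave 49.1% of the sum in cAMP, 46.8% of it in 4OHT and 10.5% in PD+LY, and Dusp6 gave 27.4%, 19.9% and 12.6%. Dusp7 gave 16.1%, 21.8% and 51.7%, and Dusp5 7.39%, 11.6% and 25.3%. Under the inhibitors Dusp7 thus had the largest share of the 4, at 6.93 ± 1.26 FPKM against 9.93 ± 0.355 FPKM in 4OHT.

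**Figure D2:**
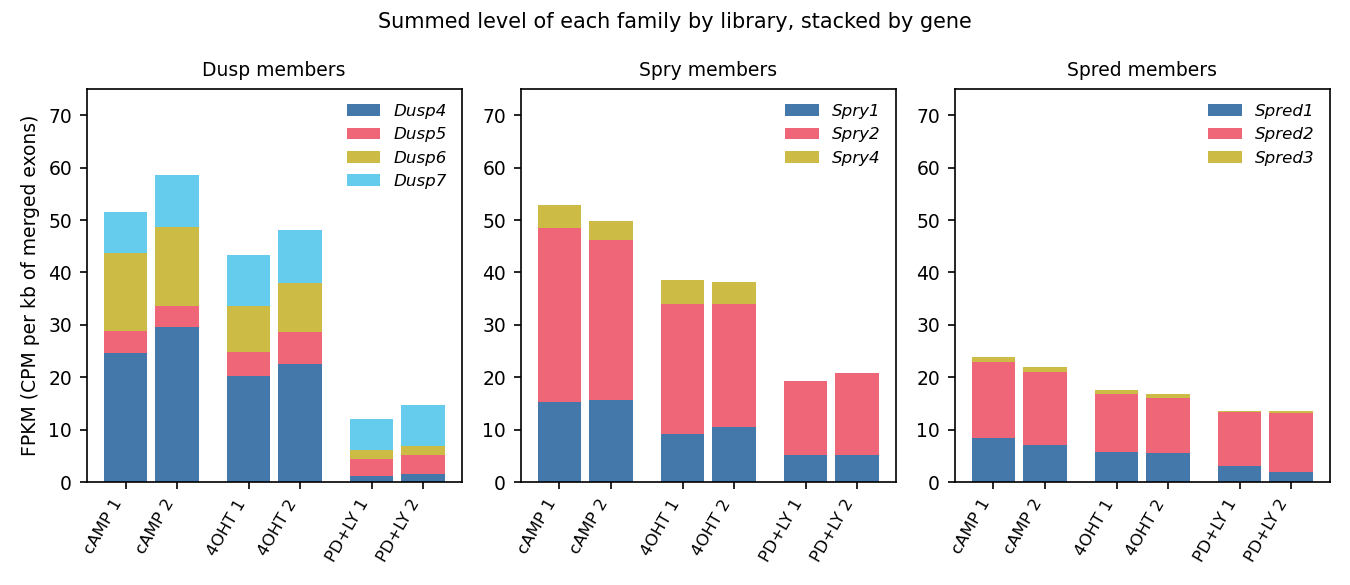
Summed level of the feedback genes in each library, in FPKM, split into Dusp, Spry and Spred genes and stacked by gene. The Dusp bars drop from 43.3 and 48.1 FPKM in 4OHT to 12.1 and 14.7 FPKM in PD+LY with loss of the Dusp4 and Dusp6 layers, the Spry4 layer is no longer visible in PD+LY, and the Spred2 layer is about as high in PD+LY as in 4OHT.

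Spry4 (chromosome 18, 38586247 to 38601415, minus strand), a Sprouty that restrains RAS and RAF activation, showed the largest change of the 10 genes. It had 21.3 and 17.3 CPM in cAMP (338 and 356 counts), 21.1 and 20.1 in 4OHT (316 and 367 counts), and 0.255 and 0.243 in PD+LY (5 and 5 counts). The cAMP and 4OHT libraries overlapped, and both PD+LY libraries were just above the floor of 3 counts, which equals 0.146 to 0.2 CPM. Against 4OHT Spry4 fell 80.6-fold (log2 fold change -6.33, SE 0.27, 95% interval -6.93 to -5.74, adjusted p = 1.18e-07), and its value ranked 13 from the lowest among the 15256 tested genes. Against cAMP it fell 75.4-fold (-6.24, adjusted p = 6.85e-08). Since so few counts remained, the summed counts scaled by depth give a ratio of 82.7 to 4OHT with an interval of 44.7 to 173.0 and of 76.6 to cAMP with 41.4 to 160.0, both for counting error only. From cAMP to 4OHT the log2 fold change was 0.1 (SE 0.16, 95% interval -0.26 to 0.45, adjusted p = 0.766), and it was -0.04 without cAMP replicate 2.

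Spry1 and Spry2 moved far less than Spry4 under the inhibitors and were called in PD+LY only relative to cAMP. Spry1 (chromosome 3, 37639947 to 37644598, plus strand) had 44.2 and 45.2 CPM in cAMP, 26.6 and 30.8 in 4OHT, and 15.2 and 15.2 in PD+LY. Spry2 (chromosome 14, 105891947 to 105896819, minus strand), the most abundant Sprouty here, had 69.3 and 63.6 CPM in cAMP, 52.0 and 48.7 in 4OHT, and 29.4 and 32.5 in PD+LY. For both genes the 3 groups did not overlap and stood in the same order. Spry1 had a log2 fold change of -0.64 in 4OHT relative to cAMP (SE 0.13, adjusted p = 0.0111) and of -0.92 in PD+LY relative to 4OHT (SE 0.13, adjusted p = 0.000604), each below 2-fold, and fell 2.94-fold in PD+LY relative to cAMP (-1.56, adjusted p = 1.03e-05). For Spry2 the values were -0.4 (SE 0.12, adjusted p = 0.0525), -0.7 (SE 0.12, adjusted p = 0.00148) and a 2.15-fold fall against cAMP (-1.1, adjusted p = 5.03e-05). Without 4OHT replicate 1 the change of Spry1 in PD+LY relative to 4OHT was -1.02 (adjusted p = 0.00418) and so past 2-fold. Exons of Gm42922 on the opposite strand share 710 bases with Spry1 and cannot be separated from it in these counts.

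Spry2 made up most of the Sprouty pool in every group. The 3 genes summed to 52.9 and 49.7 FPKM in cAMP, 38.5 and 38.2 in 4OHT, and 19.4 and 20.8 in PD+LY. Spry2 gave 62.1%, 62.9% and 73.7% of the sum, Spry1 30.0%, 25.8% and 26.0%, and Spry4 7.9%, 11.3% and 0.261%. Spry3, listed among the other inhibitors below, had 13 to 26 counts in each library.

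Of the Spred genes, Spred1 and Spred3 fell in PD+LY relative to 4OHT, and Spred2 showed no detectable change in that comparison. Spred1 (chromosome 2, 117121374 to 117182279, plus strand), whose human counterpart is mutated in Legius syndrome, had 57.5 and 48.3 CPM in cAMP, 39.1 and 37.2 in 4OHT, and 21.1 and 13.0 in PD+LY. Its groups did not overlap, although the PD+LY libraries lay further apart than those of the other groups relative to their mean. Spred1 fell 2.24-fold in PD+LY relative to 4OHT (log2 fold change -1.16, SE 0.19, 95% interval -1.58 to -0.74, adjusted p = 0.00137) and 3.1-fold against cAMP (-1.63, adjusted p = 9.72e-05). Without PD+LY replicate 2 the change against 4OHT was -0.85 (adjusted p = 0.00176) and no longer 2-fold. From cAMP to 4OHT the value of Spred1 was -0.47 (SE 0.18, adjusted p = 0.142).

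Spred3 (chromosome 7, 29158829 to 29170411, minus strand) was the least abundant of the 10 genes in cAMP and in 4OHT. It had 6.16 and 6.14 CPM in cAMP, 4.2 and 4.72 in 4OHT, and 1.07 and 1.7 in PD+LY. Its groups did not overlap. It fell 3.2-fold in PD+LY relative to 4OHT (-1.68, SE 0.3, adjusted p = 0.00221) and 4.41-fold against cAMP (-2.14, adjusted p = 0.000276), with -0.46 in 4OHT relative to cAMP (SE 0.26, adjusted p = 0.316). Ggn, which shares 202 exon bases with Spred3 on the opposite strand, had 2 to 12 counts per library.

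Spred2 (chromosome 11, 19924375 to 20024026, plus strand) was the 1 feedback gene that did not pass even the adjusted p alone in PD+LY relative to 4OHT. It had 66.9 and 64.2 CPM in cAMP, 51.2 and 48.7 in 4OHT, and 47.6 and 52.4 in PD+LY. The 4OHT and PD+LY libraries overlapped, and both lay below cAMP. Its log2 fold change in PD+LY relative to 4OHT was 0.0 with a 95% interval of -0.24 to 0.24 (adjusted p = 0.991), which does not overlap the intervals of Spred1 or of Spred3 (-2.33 to -1.03). In 4OHT relative to cAMP it was -0.39 (SE 0.11, adjusted p = 0.0474) and in PD+LY relative to cAMP also -0.39 (adjusted p = 0.021), both 1.31-fold. The Spred genes summed to 23.9 and 22 FPKM in cAMP, 17.5 and 16.8 in 4OHT, and 13.6 and 13.5 in PD+LY. Spred2 gave 61.8% of the sum in cAMP, 63.0% of it in 4OHT and 79.8% in PD+LY, while Spred1 gave 33.9%, 32.8% and 18.6%.

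When 4OHT was given, no feedback gene was called in either direction, and those that passed the adjusted p alone were lower. Of all tested genes 2.67% were called in 4OHT relative to cAMP, 1.51% lower. DESeq2 also called 0 of the 10. At an unadjusted p under 0.05 in edgeR, 6 of the 10 were lower and 0 higher, where 12.2% of all tested genes were lower and 11.7% higher. By the adjusted p alone 3 passed, Dusp6, Spry1 and Spred2, all lower, against 4.35% of all genes tested. These calls rest on few libraries. Without 4OHT replicate 1 or without 4OHT replicate 2 none of the 10 passed the adjusted p, and without either cAMP library Dusp6 was the 1 that passed. Over all settings the highest adjusted p was 0.0914 for Dusp6, 0.172 for Spry1 and 0.333 for Spred2. The median log2 fold change of the 10 genes was -0.4, where that of all tested genes was -0.0. The fusion is made in follicular cells, while other cell types of the organoid also contribute RNA, and the share of each in these values cannot be told apart.

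With the inhibitors most of the feedback genes were lower. In PD+LY relative to 4OHT 5 of the 10 were called, all lower: Dusp4, Dusp6, Spry4, Spred1 and Spred3. Of all tested genes 4.9% were called lower. By the adjusted p alone 9 of 10 were lower, all but Spred2, against 12.1% of all genes. The median log2 fold change of the 10 was -1.04, and that of all genes 0.01. In PD+LY relative to cAMP 7 of the 10 were called lower, with Spry1 and Spry2 added to the same 5 genes, against 6.24% of all genes. By the adjusted p alone 8 passed, Spred2 included, against 13.7% of all genes. All 10 had both PD+LY libraries below both cAMP libraries, as did 31.2% of all tested genes. The median was -1.59 for the 10 and 0.0 for all genes. The comparisons share libraries, so their values for a gene are not independent of each other.

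**Figure D3:**
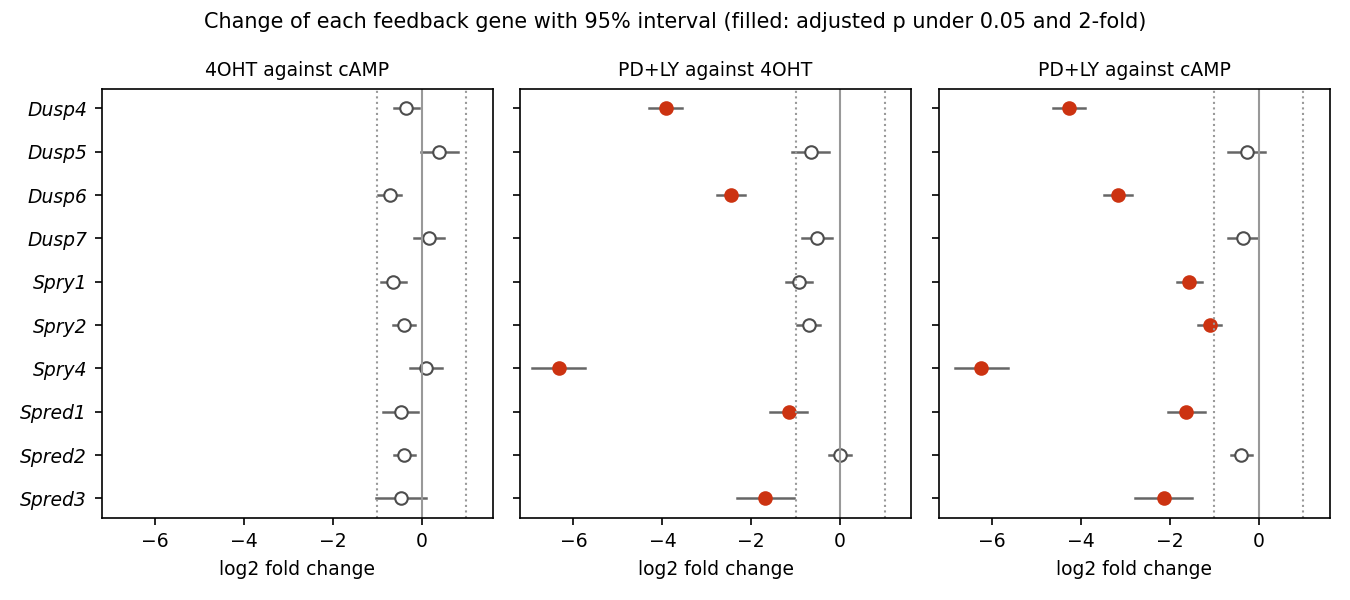
Log2 fold change of each feedback gene in the 3 comparisons, with points for the edgeR estimates, bars for 95% intervals, filled points for genes past an adjusted p under 0.05 and 2-fold, and dotted lines at 2-fold. No point is filled in 4OHT relative to cAMP, 5 are filled in PD+LY relative to 4OHT and 7 in PD+LY relative to cAMP, all to the left, from -1.1 for Spry2 to -6.24 for Spry4 in the last.

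The other genes of the pathway did not all follow. Among 6 other MAP kinase phosphatases, 1 was called in PD+LY relative to 4OHT, Dusp9, an ERK phosphatase that had 185.0 and 174.0 CPM in 4OHT and 73.4 and 84.0 in PD+LY (log2 fold change -1.19, adjusted p = 1.98e-05). Dusp1 (0.56, adjusted p = 0.00292) and Dusp16 (0.51, adjusted p = 0.00246), which prefer p38 and JNK, were higher by the adjusted p but below 2-fold. The median of these 6 genes was 0.3, against -1.04 for the 10 feedback genes. None of the 6 was called in 4OHT relative to cAMP (median 0.2) or in PD+LY relative to cAMP (median 0.45). DESeq2 called 0 there too, and the unadjusted p in edgeR was under 0.05 for 2 higher and 0 lower in the first and 3 higher and 1 lower in the second. In the second, 19.8% of all tested genes were lower and 18.3% higher at that p.

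Among 17 other inhibitors of receptor and RAS signaling, Il17rd (also named Sef), which restrains FGF receptor and ERK signaling, moved in the same order as Spry1. It had 69.6 and 61.4 CPM in cAMP, 33.4 and 35.1 in 4OHT, and 22.8 and 22.2 in PD+LY, and was the 1 gene of the list called in PD+LY relative to cAMP (-1.54, adjusted p = 6.06e-06). In 4OHT relative to cAMP and in PD+LY relative to 4OHT none of the 17 was called by edgeR or DESeq2. There the unadjusted p in edgeR was under 0.05 for 5 lower and 2 higher and for 6 lower and 4 higher, and the medians were -0.09 and -0.26. In PD+LY relative to 4OHT 18.8% of all tested genes were lower and 18.0% higher at that p.

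The kinases and adaptors of the cascade itself were not called. None of 12 core genes, among them Braf and Mapk3, was called in any comparison by edgeR or DESeq2. Their medians were 0.03 in 4OHT relative to cAMP, 0.04 in PD+LY relative to 4OHT and 0.06 in PD+LY relative to cAMP. The unadjusted p in edgeR was under 0.05 for 1 lower and 0 higher, 1 lower and 4 higher, and 1 lower and 3 higher of them. Braf had 95.3 and 85.5 CPM in cAMP, 61.8 and 61.4 in 4OHT and 59.2 and 48.1 in PD+LY (-0.55 in 4OHT relative to cAMP, adjusted p = 0.0165). These counts do not separate the fusion from the native gene, so Braf is no check of the sample labels.

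Target genes of ERK outside the feedback set were mostly lower with the inhibitors. Of 12 ERK target genes 9 were called lower in PD+LY relative to 4OHT, with a median of -1.71. The 2 with a log2 fold change above 0 were Epha4 (0.72, edgeR adjusted p = 0.00323), below 2-fold, and Etv5 (0.24, edgeR adjusted p = 0.0755). Etv5, the most abundant gene of the list, was lower in 4OHT relative to cAMP (-0.54, edgeR adjusted p = 0.00467), below 2-fold. Etv4, an ETS factor, fell from 36.8 and 36.6 CPM to 0.611 and 0.389 CPM (-6.18, adjusted p = 2.98e-08), and Egr1, an immediate early gene, from 8.61 and 10.4 CPM to 0.917 and 0.973 CPM (-3.32, adjusted p = 1.77e-05). Fosl1, an AP-1 subunit, had 11 and 30 counts in 4OHT and 0 in both PD+LY libraries, and was at least 7.97-fold lower against a floor of 3 counts per library (adjusted p = 0.00363). Of its exon length 57.21% overlaps Ccdc85b on the opposite strand. In PD+LY relative to cAMP 8 of the 12 were called lower, Etv4 (-5.38), Egr1 (-2.83) and Ccnd1 (-1.83) the most, and 1 higher, the ephrin receptor Epha4 (1.06, adjusted p = 0.000209), with a median of -1.58. Neither edgeR nor DESeq2 called any of the 12 in 4OHT relative to cAMP (median 0.27), with 6 higher and 1 lower at an unadjusted p under 0.05 in edgeR.

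**Figure D4:**
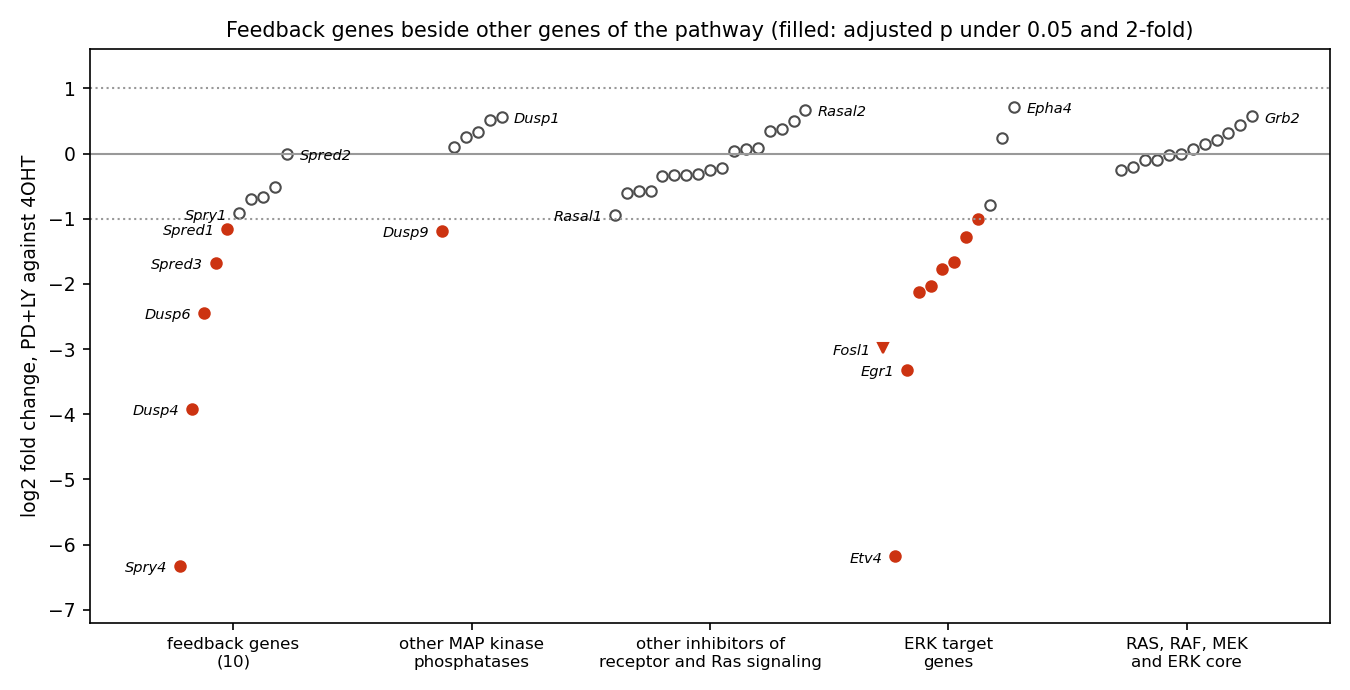
Log2 fold change in PD+LY relative to 4OHT of the 10 feedback genes and of the genes of 4 other pathway lists, sorted within each list, with filled points past an adjusted p under 0.05 and 2-fold, dotted lines at 2-fold and a triangle for the bound of Fosl1, which had 0 counts in PD+LY. Spry4 and Etv4 lie lowest at -6.33 and -6.18, and the 12 core genes and 17 other inhibitors lie within 2-fold.

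The profile of each feedback gene over the 6 libraries was set against 13780 genes with a mean of at least 1 CPM, by the Euclidean distance between log2 CPM values centred per gene. Smaller distances mean more similar profiles, and all points share the same libraries. Spry4 was nearest to Etv4 (distance 0.844), then to Cxcl15 (1.71) and Sftpb (1.88). Dusp4 was nearest to Optc (0.371), Crhbp (0.55) and Sftpb (0.844), and Dusp6 to Bhlha15 (0.252), Slc4a1 (0.377) and Bcl6b (0.439). In PD+LY Cxcl15 (0.0509 and 0.0 CPM) and Slc4a1 (0.153 and 0.0973 CPM) were at or below the floor of 3 counts. Spry4 itself had 5 and 5 counts in PD+LY, and Etv4 12 and 8. The distances to Cxcl15 and Slc4a1, and all distances of Spry4, therefore rest on few counts. In 4OHT relative to cAMP Etv4 had a log2 fold change of 0.8 (edgeR adjusted p = 0.00641) and Spry4 of 0.1 (edgeR adjusted p = 0.766). Optc had 24.5 and 26.5 CPM in cAMP, 21.5 and 18.2 in 4OHT, and 0.968 and 1.56 in PD+LY, close to the proportions of Dusp4.

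Spry1 was nearest to C530008M17Rik (0.221), Cyp2s1 (0.222) and Cbr3 (0.23), and Spry2 to Tuba4a (0.0873), Clstn3 (0.114) and Pnma2 (0.206). Dusp5 was nearest to Grasp (0.131), Inca1 (0.137) and Zbtb7c (0.146), and Dusp7 to Akap8l (0.0432), Fam193b (0.0678) and Zfp219 (0.0737). Among the Spred genes, Spred1 was nearest to Frzb (0.289), Tfpi (0.319) and Jade2 (0.359), Spred2 to Numb (0.115), Epb41l4a (0.125) and Itsn2 (0.125), and Spred3 to Oas3 (0.25), Rlbp1 (0.275) and Aifm3 (0.293). Between feedback genes the nearest pairs were Dusp5 with Dusp7 (0.397) and Spry1 with Spry2 (0.522), and the farthest was Spry4 with Spred2 (6.5).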

How the data were processed

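Bulk RNA-seq counts of 6 libraries were used, 2 per group, and groups were taken from the sample labels. The authors trimmed the read pairs (Trimmomatic), aligned them with HISAT2 to the mm10 (GRCm38) genome and counted them per gene in the unstranded mode of HTSeq, although the library kit preserves strand, and the deposited values are raw counts per gene symbol. The filterByExpr function, with a minimum count of 10 and a minimum total of 15, retained 15256 genes and dropped 9983. Counts were scaled by TMM (factors 0.9905 to 1.0068), and the 6 libraries were fitted together in an edgeR quasi-likelihood model of the 3 groups (R 4.3.3, edgeR 4.0.16; common biological coefficient of variation 0.105), as a main test in place of the authors' DESeq2, which was run as an alternative (1.42.0). Benjamini-Hochberg adjustment ran over every gene tested. Thresholds were those of the study's methods, an adjusted p under 0.05 and 2-fold. Positions and exon lengths were taken from the GENCODE M21 annotation, where 24321 of 25239 symbols had 1 length, and FPKM rest on all annotated exons of a gene merged. Intervals and floors from counts cover counting error only.

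All 10 feedback genes are named. From the other pathway lists, called genes are named where there are 5 or fewer per direction, otherwise the 3 with the largest change. Genes named beyond this rule (Dusp1, Dusp16, Braf and Etv5 with values, and Spry3 by its counts) were chosen after their values were seen. For each feedback gene the 3 nearest profiles are named (prior count 2). Some genes of the core and thyroid lists are not reported here and were left out of their counts and sums. The members, lists and tests were chosen with earlier results of these data known. Alternatives were RLE size factors, no filter, DESeq2, the adjusted p alone, a fit restricted to the groups compared, a block for the replicate number and leaving out each library. Protein sequences and the staining, flow cytometry and RT-qPCR of the study are not analysed here.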

Additional observations from a re-analysis of the deposited data

How the results depend on the processing

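The numbers of feedback genes called (0 in 4OHT relative to cAMP, 5 in PD+LY relative to 4OHT, 7 in PD+LY relative to cAMP) were unchanged under RLE size factors, without a filter, in DESeq2, in a fit to the 2 groups compared and with the replicate number as a block, which gave 0, 5 and 7. The same-numbered libraries deviated together with correlations of 0.072, 0.207 and 0.059 and no label ties them, so the numbers were not read as a pairing. With the adjusted p alone the counts were 3, 9 and 8. Leaving out 1 library gave 0 to 0, 4 to 6 and 7 to 7. Of 330 values of single genes under the alternatives 325 kept direction and call. The log2 fold change changed sign for Spry4 in 4OHT relative to cAMP (-0.04 without cAMP replicate 2, where leaving out 1 library gave up to 0.25) and for Spred2 in PD+LY relative to 4OHT (-0.03 without 4OHT replicate 2, -0.07 without PD+LY replicate 2, and up to 0.07), all within their error. Spred1 lost its call (-0.85 without PD+LY replicate 2) and Spry1 gained one (-1.02 without 4OHT replicate 1). In 4OHT relative to cAMP the number of feedback genes past the adjusted p alone was 3 to 6 in the settings that kept all libraries, with 6 under the block, and 0 to 5 with 1 library left out. Over all genes the calls in 4OHT relative to cAMP were 164 without 4OHT replicate 1, 221 without 4OHT replicate 2 and 268 without cAMP replicate 1, against 408, and those in PD+LY relative to 4OHT 632 without 4OHT replicate 2, against 1107. The few counts left in PD+LY limit the size of the fall for Spry4.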
